A study of Mus musculus with 29 samples.

Results

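The transforming growth factor beta (TGF-beta) ligands Tgfb1, Tgfb2 and Tgfb3, their receptors Tgfbr1, Tgfbr2 and Tgfbr3, and the Smads Smad2, Smad3, Smad4 and Smad7 were followed across tumor-bearing and lesion-free mouse prostates. These 10 genes were taken as a fixed list of pathway members. Of them, 9 had a named probe on the array. Smad7, an inhibitory Smad, had 0 and is only named here. The 9 genes were read by 14 of the 25697 probes, and 13 of the 14 were detected on at least 1 array and entered the tests. Detected means a detection p-value under 0.01 on that array.

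TGF-beta ligands are secreted in a latent form and, once released, bind the type II receptor Tgfbr2, which recruits and activates the type I receptor kinase Tgfbr1. Tgfbr1 phosphorylates Smad2 and Smad3, which join the common partner Smad4 and act on genes in the nucleus, while the co-receptor Tgfbr3, also called betaglycan, presents ligand and is known above all for its binding of Tgfb2. In the prostate, the smooth muscle and fibroblast stroma is a source of ligand, and the pathway is known for restraining the growth of epithelial cells.

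Each of the 29 arrays held RNA of 1 mouse prostate. TRAMP mice carry the SV40 T antigen under the rat probasin promoter, which is active in prostate epithelium, and all mice of the study, all male, carried it. OPN-/-TRAMP mice also lack osteopontin, encoded by Spp1, through the Spp1tm1Blh allele. The groups were OPN-/-TRAMP prostates of 18 wks with a neuroendocrine (NE) tumor (OPT-tm, n = 3), TRAMP prostates of 30 wks with adenocarcinoma (T30, n = 4), OPN-/-TRAMP prostates of 18 wks without a tumor mass (lesion-free OPT18, n = 13), OPN-/-TRAMP prostates of 15 wks (OPT15, n = 5) and TRAMP prostates of 18 wks (T18, n = 4). Lesion-free means that no mass was palpable or seen by ultrasound, for OPT15 and T18 as well, and leaves microscopic lesions possible. The strain was labelled B6.tgN (TRAMP)8247Ng Spp1<tm1Blh>/J for OPN-/-TRAMP and C57BL/6-tgN (TRAMP)8247Ng for TRAMP. The authors had split the OPT18 and OPT15 prostates by clustering into an Early-NE class (4 OPT18, 1 OPT15) and an Early-ADC class (9 OPT18, 4 OPT15). That clustering used genes that differ between OPT-tm and T30 on these same arrays, so the classes are described here without a test. OPT-tm and lesion-free OPT18 shared genotype and age, and T30 and T18 shared genotype but lay 12 weeks apart. OPT-tm and T30 differed in genotype, age and tumor type together, and the part of each cannot be told apart.

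The neuroendocrine label of OPT-tm was checked on 7 markers. All 7 rose against lesion-free OPT18, where 32.1% of all genes were higher (limma, adjusted p under 0.05). Their summed signal was 108168 to 117780 in OPT-tm and 2966 to 36600 in lesion-free OPT18. The T30 prostates had a summed neuroendocrine signal of 1692 to 1842. The arrays lay on 4 chips, and the share of probes detected was 47.1 to 51.8% on chips 1 and 2 and 38.7 to 41.9% on chips 3 and 4. The T30 prostate of chip 1 stood apart in its seminal vesicle markers, with a summed signal of 3249, against 312717 to 344373 in the other 3. Both facts touch the results below, and the counts were repeated without those arrays.

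The promoters of 3 members are shown because Tgfbr2 and Smad3 were lower and Tgfbr1 higher in OPT-tm. The sequences are those of RefSeq (build GRCm38.p6, 250 bases before to 50 after the start, read along the gene), and 5 of the 10 genes had an entry. Capitals mark exact matches, on either strand, to the Smad box CAGAC, the GC box GGGCGG and the E-box CAGCTG. No matches overlapped.
Tgfbr1 (chr4:47352972-47353271, plus strand): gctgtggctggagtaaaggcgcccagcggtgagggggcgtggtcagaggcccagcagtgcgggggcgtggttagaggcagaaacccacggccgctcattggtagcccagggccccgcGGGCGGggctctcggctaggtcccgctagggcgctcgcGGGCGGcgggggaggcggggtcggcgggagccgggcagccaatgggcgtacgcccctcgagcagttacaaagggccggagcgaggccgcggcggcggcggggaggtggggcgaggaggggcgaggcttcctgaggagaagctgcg
Tgfbr2 (chr9:116175314-116175613, minus strand): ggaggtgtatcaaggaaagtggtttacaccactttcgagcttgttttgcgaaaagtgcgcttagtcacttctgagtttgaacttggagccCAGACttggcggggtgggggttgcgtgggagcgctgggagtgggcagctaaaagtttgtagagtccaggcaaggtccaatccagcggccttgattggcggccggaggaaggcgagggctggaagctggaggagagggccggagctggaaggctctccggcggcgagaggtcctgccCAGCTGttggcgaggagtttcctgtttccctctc
Smad3 (chr9:63757945-63758244, minus strand): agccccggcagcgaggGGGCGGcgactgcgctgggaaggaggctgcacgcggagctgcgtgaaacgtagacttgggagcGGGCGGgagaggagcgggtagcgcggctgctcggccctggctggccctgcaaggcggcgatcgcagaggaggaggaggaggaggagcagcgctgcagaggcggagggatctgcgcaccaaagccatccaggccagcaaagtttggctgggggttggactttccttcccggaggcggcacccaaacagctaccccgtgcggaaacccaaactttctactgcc

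The promoters of Tgfbr1 and Smad3 each held 2 GC boxes and neither of the other motifs, and 34 and 25 CpG dinucleotides. The Tgfbr2 promoter held 1 Smad box, 1 E-box and no GC box, with 15 CpG dinucleotides. Of all 32851 promoters in the table, 35.7% had a GC box, 49.6% a Smad box and 16.3% an E-box, and the median CpG count was 7. Tgfbr1 and Smad3, which moved in opposite directions in OPT-tm, thus had the same motif counts in this window, and these matches are a description only.

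Against lesion-free OPT18, OPT-tm prostates had less of the type II receptor, the co-receptor and Smad3, and more of the type I receptor, Tgfb2, Tgfb3 and Smad2. Of the 13 probes, 5 were higher, 5 were lower and 3 did not pass (limma, Benjamini-Hochberg adjusted p under 0.05 over all 15825 tested probes). Among all tested probes, 32.6% were higher and 30.4% were lower, so the number of changed probes in this family was near that of the array. The direction and size of each member, and whether T30 showed it too, are given next by role. Values are log2 signals after quantile normalization. A difference of 1 stands for 2-fold, and levels are compared within a probe only.

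**Figure D1:**
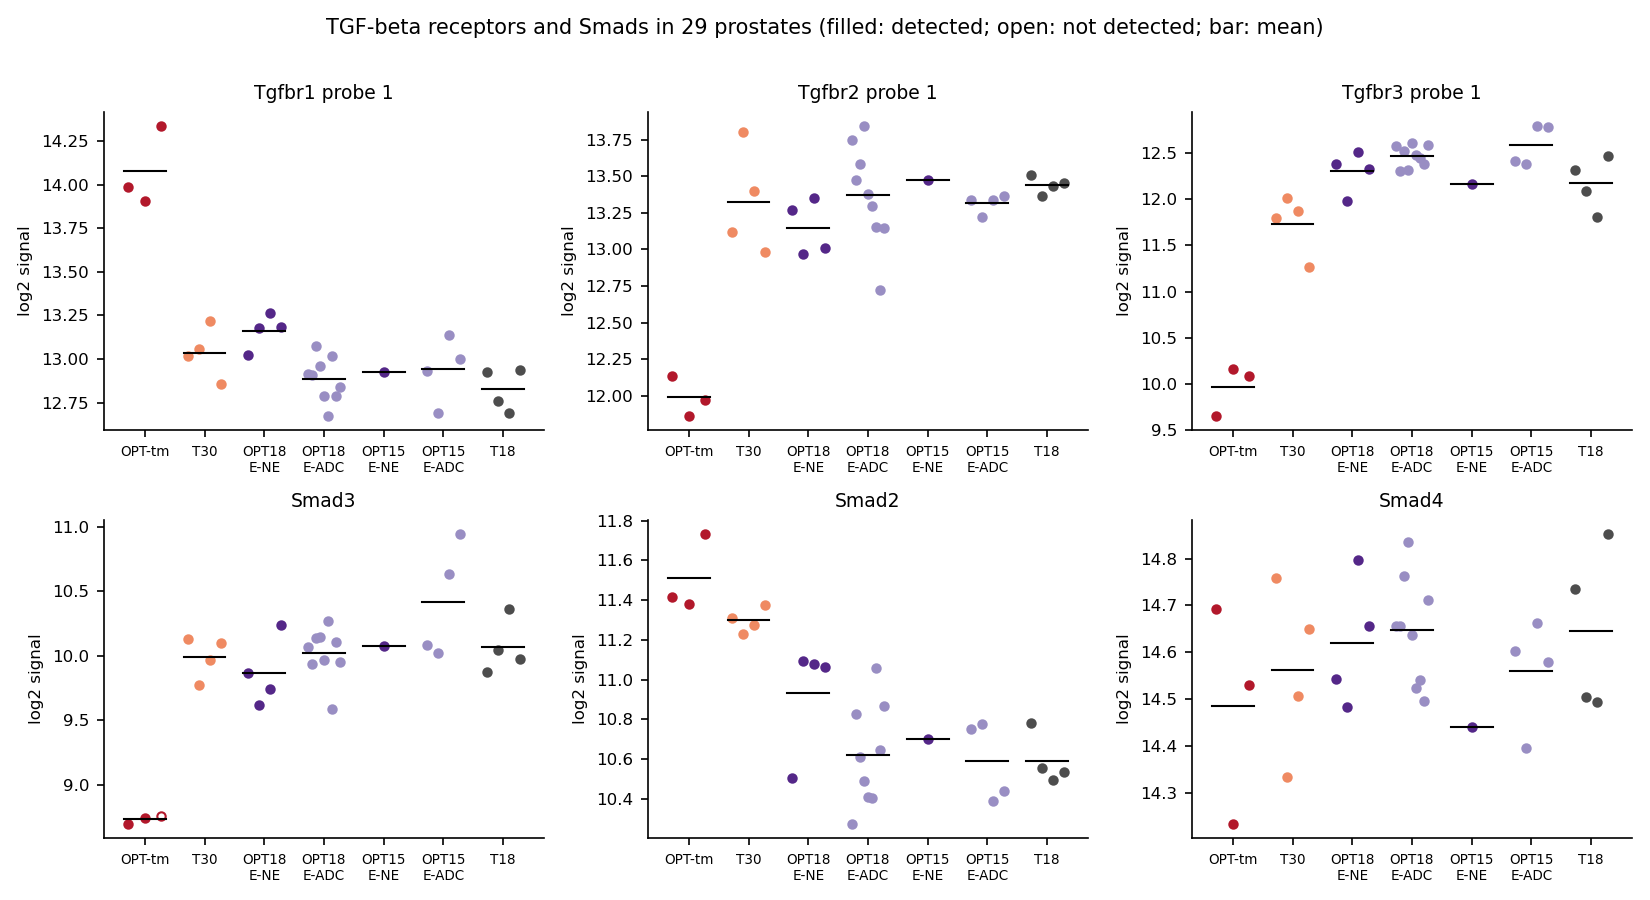
Log2 signal (y axis) of 1 probe each for the TGF-beta receptors and Smads in 29 prostates, with 1 point per mouse, grouped on the x axis (E-NE, Early-NE. E-ADC, Early-ADC). Bars are group means, and open points were not detected. OPT-tm lies below every other prostate for Tgfbr2, Tgfbr3 and Smad3 and above every other for Tgfbr1, and both tumor groups lie above the lesion-free prostates for Smad2.

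Among the receptors, Tgfbr3 changed most. Its brighter probe, detected on all 29 arrays, read 9.65, 10.16 and 10.09 in OPT-tm, against a lowest, median and highest value of 11.98, 12.45 and 12.61 in lesion-free OPT18. No OPT-tm value reached the lesion-free range. The difference was -2.45 ± 0.13 (SE), or 5.48-fold lower in OPT-tm (limma, adjusted p = 6.5e-12), and it lay between -2.78 and -2.21 within each of the 3 chips. The second Tgfbr3 probe was detected on 0 of 3 OPT-tm arrays and on 13 of 13 lesion-free OPT18 arrays, where it read 9.25 to 10.28. It was at least 1.93-fold lower in OPT-tm, a bound set against the dimmest detected signal of each array (limma, adjusted p = 1.8e-06).

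T30 kept most of its Tgfbr3. The brighter probe read 11.80, 12.01, 11.88 and 11.26 in T30, against 12.32, 12.09, 11.81 and 12.47 in T18. The groups overlapped, and the difference of -0.44 did not pass, with a 95% confidence interval of -0.88 to 0.01 (limma, adjusted p = 0.31). OPT-tm was 3.41-fold lower than T30 on this probe (limma, adjusted p = 3.1e-04). The difference between the tumor effects, that of OPT-tm over lesion-free OPT18 minus that of T30 over T18, was -2.02 ± 0.22 (SE, limma, adjusted p = 1.2e-07), and the second probe passed as well (limma, adjusted p = 6.8e-04), with no size to give because it was detected on no OPT-tm array.

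Tgfbr2, the ligand-binding kinase, followed the same order. Its probe detected on all arrays read 12.14, 11.86 and 11.98 in OPT-tm, against 12.72, 13.30 and 13.84 for the lowest, median and highest lesion-free OPT18. The groups did not overlap. OPT-tm was 2.48-fold lower, a difference of -1.31 ± 0.18 (SE, limma, adjusted p = 3.1e-06). The second Tgfbr2 probe, dim and detected on 15 of 29 arrays and on none of the OPT-tm arrays, was also lower in OPT-tm, by at least 1.05-fold (limma, adjusted p = 0.020). Without the OPT-tm prostate of chip 3 this dim probe did not pass (adjusted p = 0.078).

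In T30, Tgfbr2 read 13.12, 13.80, 13.40 and 12.98, against 13.51, 13.37, 13.44 and 13.45 in T18. The T30 values lay on both sides of the T18 values, and the difference was -0.12, with a 95% confidence interval of -0.51 to 0.28 (limma, adjusted p = 0.80). OPT-tm was 2.52-fold lower than T30 (limma, adjusted p = 0.0012), and the tumor effects differed by -1.20 ± 0.26 (SE, limma, adjusted p = 7.2e-04). With array medians set equal in place of quantile normalization, the comparison with T30 and that of the tumor effects did not pass (adjusted p = 0.062 and 0.15), while the one with lesion-free OPT18 did.

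Tgfbr1, the signaling kinase partner of Tgfbr2, went the other way. Its brightest probe read 13.99, 13.91 and 14.34 in OPT-tm, against 12.67, 12.96 and 13.27 for the lowest, median and highest lesion-free OPT18. All 3 OPT-tm values lay above every other prostate of the study. OPT-tm was 2.15-fold higher than lesion-free OPT18, a difference of 1.11 ± 0.12 (SE, limma, adjusted p = 3.1e-07). In T30 the probe read 13.02, 13.06, 13.22 and 12.86, against 12.93, 12.76, 12.69 and 12.94 in T18, a difference of 0.21 that did not pass (95% confidence interval -0.08 to 0.49, limma, adjusted p = 0.46).

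The other Tgfbr1 probes were dimmer. Probe 3 was detected on 3 of 3 OPT-tm arrays and on 3 of 13 lesion-free OPT18 arrays, and was 1.68-fold higher in OPT-tm (limma, adjusted p = 5.8e-05), with most lesion-free values near background. Probe 2 read 9.60, 9.33 and 9.51 in OPT-tm and 8.74 to 9.79 in lesion-free OPT18, a difference of 0.36 that did not pass (limma, adjusted p = 0.081) but did with the chip as a block, within 0.49 to 0.55 on each of the 3 chips. Probe 4 was detected on no array. Between the tumor effects, Tgfbr1 differed by 0.90 ± 0.18 on probe 1 (SE, limma, adjusted p = 2.2e-04) and by 0.55 ± 0.18 on probe 3 (SE, limma, adjusted p = 0.013), which was detected on 1 of 4 T30 and 0 of 4 T18 arrays, so that its size rests on values near background. For probe 1 this difference did not pass with array medians set equal (adjusted p = 0.056).

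Smad3, 1 of the 2 Smads that the receptor activates, was lower in OPT-tm. It read 8.70, 8.75 and 8.76 in OPT-tm, against 9.59, 9.97 and 10.27 for the lowest, median and highest lesion-free OPT18, with no overlap. The difference was -1.24 ± 0.13 (SE), or 2.36-fold lower (limma, adjusted p = 1.8e-07). Smad3 was detected on 28 of 29 arrays, among them all lesion-free OPT18 and OPT15 arrays. With background correction (neqc) the difference was -1.93, so its size depended on how background was handled. In T30 Smad3 read 10.13, 9.78, 9.97 and 10.10, against 9.88, 10.04, 10.36 and 9.97 in T18. Those groups overlapped, with a difference of -0.07 and a 95% confidence interval of -0.40 to 0.26 (limma, adjusted p = 0.86). OPT-tm was 2.39-fold lower than T30 (limma, adjusted p = 2.1e-04), and the tumor effects differed by -1.17 ± 0.20 (SE, limma, adjusted p = 4.1e-05).

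Smad2, the other activated Smad, rose in both tumors. It read 11.42, 11.38 and 11.73 in OPT-tm, against 10.27, 10.65 and 11.09 for the lowest, median and highest lesion-free OPT18, 1.73-fold higher (limma, adjusted p = 4.8e-04). In T30 it read 11.31, 11.23, 11.27 and 11.37, against 10.78, 10.56, 10.49 and 10.54 in T18, 1.63-fold higher (limma, adjusted p = 0.015). Neither pair of groups overlapped, and T30 was above T18 on 4 of 4 chips. The tumor effects differed by 0.09, with a 95% confidence interval of -0.39 to 0.56 (limma, adjusted p = 0.79), and OPT-tm stood 0.21 above T30 without passing (limma, adjusted p = 0.27). The call in T30 was the only 1 among the 13 probes in that comparison, with 0 lower, where 0.392% of all tested probes were higher and 1.57% lower. At an unadjusted p under 0.05, 3 were higher and 0 lower. For this and later counts at an unadjusted p, no share of all probes or genes at that threshold is given. The call of Smad2 was lost without the T18 prostate of chip 2 or 4 or the T30 prostate of chip 3 (adjusted p = 0.052, 0.056 and 0.057), on chips 1 and 2 alone (adjusted p = 0.90) and with array medians set equal (adjusted p = 0.52), while the difference stayed between 0.60 and 0.80.

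Smad4, the common partner, did not pass in any comparison. It read 14.69, 14.24 and 14.53 in OPT-tm, against 14.48 to 14.83 in lesion-free OPT18, a difference of -0.15 with a 95% confidence interval of -0.37 to 0.07 (limma, adjusted p = 0.21). In T30 it read 14.76, 14.34, 14.51 and 14.65, against 14.73, 14.50, 14.49 and 14.85 in T18 (difference -0.08, limma, adjusted p = 0.83). With the authors' normalized values, OPT-tm was lower than lesion-free OPT18 at an adjusted p of 0.047.

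**Figure D2:**
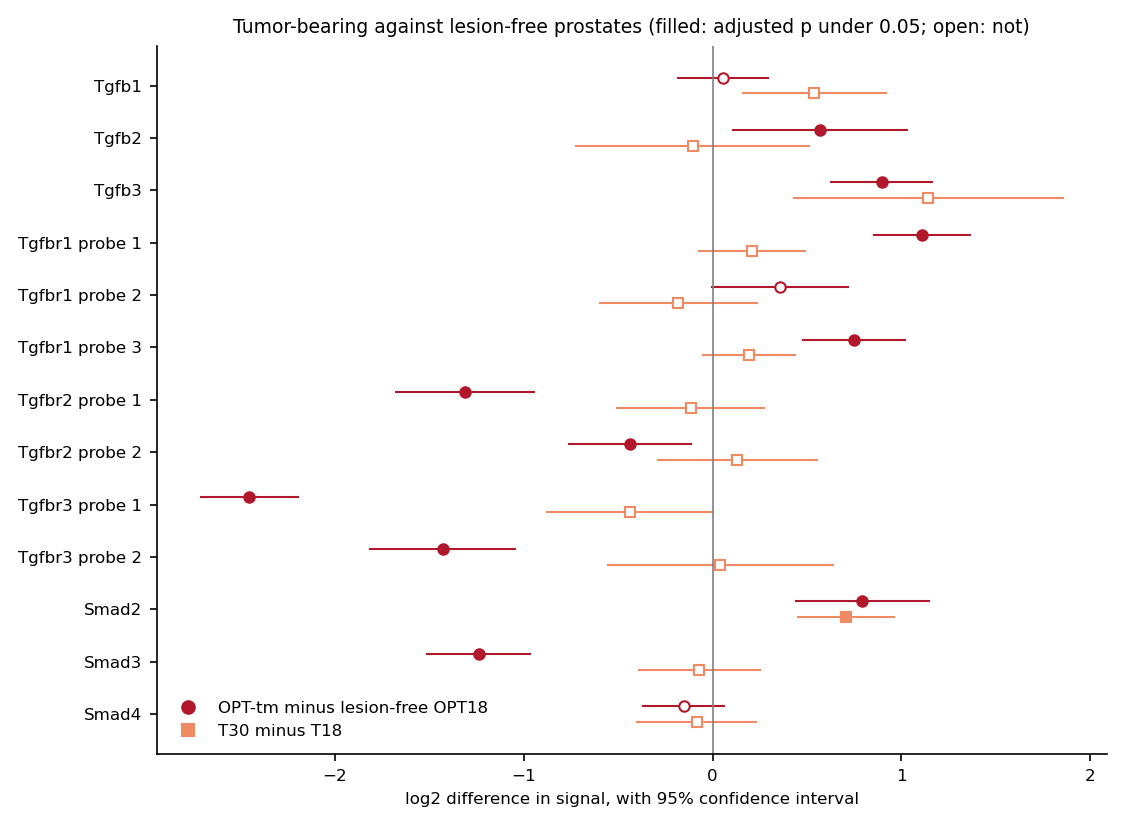
Log2 difference in signal (x axis) for each of the 13 tested probes (y axis), OPT-tm minus lesion-free OPT18 (circles) and T30 minus T18 (squares), with 95% confidence intervals. Filled symbols passed at an adjusted p under 0.05. Tgfbr3, Tgfbr2 and Smad3 lie left of 0 with filled circles for OPT-tm and with open squares, from -0.44 to 0.13, for T30, and Smad2 lies right of 0 with filled symbols for both tumors.

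The 3 ligands each had a pattern of their own. Tgfb1, the most widely studied of them, was dim and detected on 17 of 29 arrays. It read 8.48, 8.66 and 8.55 in OPT-tm, against 8.21, 8.51 and 8.73 for the lowest, median and highest lesion-free OPT18. The OPT-tm values lay inside the lesion-free range, with a difference of 0.05 and a 95% confidence interval of -0.19 to 0.30 (limma, adjusted p = 0.71). In T30 it read 8.97, 9.53, 9.55 and 9.04, against 8.49, 8.77, 8.80 and 8.88 in T18. The T30 values were higher on 4 of 4 chips without overlap, but the difference of 0.54 did not pass (95% confidence interval 0.16 to 0.92, limma, adjusted p = 0.16). With all 29 arrays in one fit, this difference passed (limma, adjusted p = 0.038).

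OPT-tm was 1.63-fold lower than T30 for Tgfb1 (limma, adjusted p = 0.016). Set against the lesion-free prostates, this difference stood with T30 values above those of T18 and OPT-tm values inside the range of lesion-free OPT18. The tumor effects differed by -0.49 ± 0.19 (SE, limma, adjusted p = 0.045), a call that 12 of 23 alternatives ended. The comparison with T30 did not pass without the OPT-tm prostate of chip 1 (adjusted p = 0.057), with array medians set equal (adjusted p = 0.061) or on chips 1 and 2 alone (adjusted p = 0.14).

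Tgfb3 was higher in OPT-tm and, without passing, in T30. It read 10.54, 10.72 and 10.43 in OPT-tm, against a lowest and median of 9.33 and 9.61 and a mean of 9.67 ± 0.21 (SD, n = 13) in lesion-free OPT18. No lesion-free value reached the OPT-tm range, and OPT-tm was 1.86-fold higher (limma, adjusted p = 7.2e-06). In T30 it read 10.34, 11.86, 11.29 and 10.25, against 9.69, 9.84, 9.73 and 9.91 in T18. No T30 value fell into the T18 range, but the T30 values spread over 1.60. The difference of 1.14 ± 0.32 (SE) did not pass (limma, adjusted p = 0.11). With all 29 arrays in one fit, it passed (limma, adjusted p = 0.0015). OPT-tm did not differ detectably from T30 (difference -0.37, 95% confidence interval -1.22 to 0.48, limma, adjusted p = 0.46).

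The T30 prostates of chips 2 and 3, which had the highest Tgfb1 and Tgfb3, also had the highest summed basal epithelium markers, 42112 and 32948, against 9877 and 15655 in the T30 prostates of chips 1 and 4. Their summed fibroblast markers were 127406 and 83048, against 67565 and 63248. Endothelium markers were 31719 and 16288, against 9953 and 10024, and macrophage and antigen presentation markers 57444 and 55149, against 37192 and 49313. Summed smooth muscle and luminal markers were the lowest of T30 in these prostates. The part of these cells in the ligand values was not tested.

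Tgfb2 read 11.16, 11.79 and 11.05 in OPT-tm, against 10.16, 10.72 and 11.50 for the lowest, median and highest lesion-free OPT18. The groups overlapped, and OPT-tm was 1.49-fold higher (limma, adjusted p = 0.031). Without the OPT-tm prostate of chip 2 the difference was 0.34 (adjusted p = 0.25), and with array medians set equal or no filter on dim probes the call was also lost (adjusted p = 0.076 and 0.051). The lesion-free prostates that overlapped with OPT-tm were of the Early-NE class. In T30 the probe read 9.99, 11.27, 10.43 and 9.92, against 10.57, 10.36, 10.28 and 10.82 in T18, a difference of -0.11 (limma, adjusted p = 0.90). The difference between OPT-tm and T30 was 0.93 (limma, adjusted p = 0.054). It passed with the chip as a block (0.77, adjusted p = 0.032), with all 29 arrays in one fit (adjusted p = 0.0018) and without the T30 prostate of chip 2 (1.22, adjusted p = 0.0043).

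**Figure D3:**
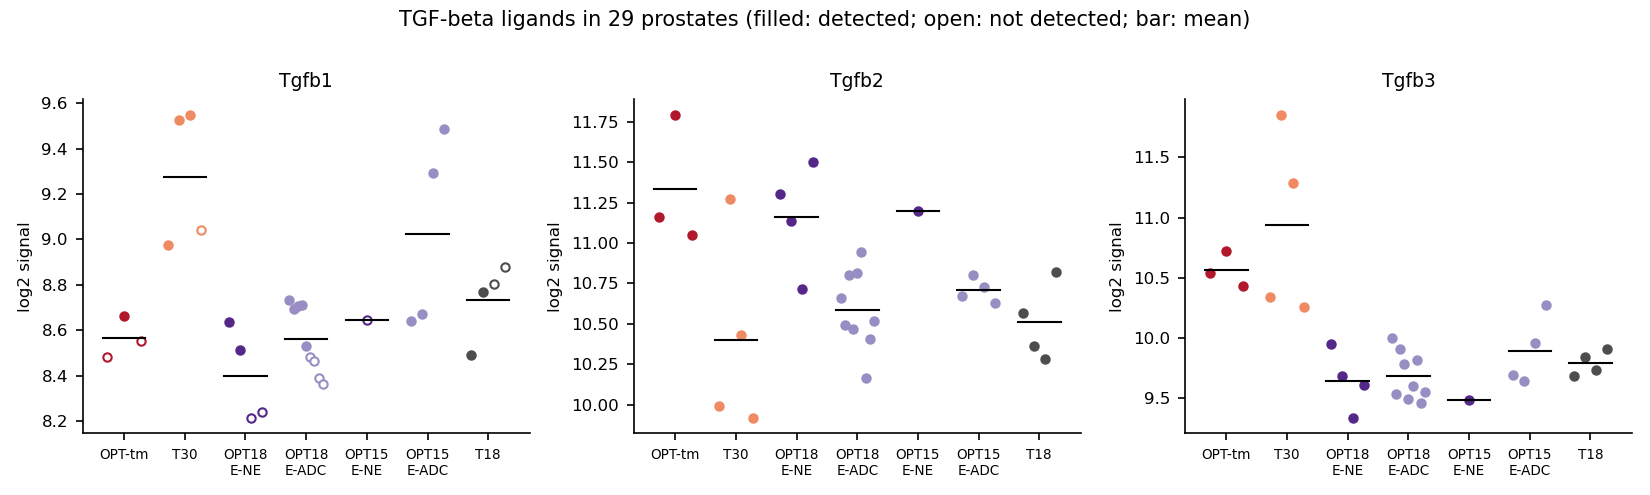
Log2 signal (y axis) of the 3 TGF-beta ligands in 29 prostates, with 1 point per mouse, grouped on the x axis (E-NE, Early-NE. E-ADC, Early-ADC). Bars are group means, and open points were not detected. Tgfb1 is highest in T30 (8.97 to 9.55) and in 2 OPT15 prostates, Tgfb3 is high in both tumor groups, and Tgfb2 of the Early-NE prostates reaches into the OPT-tm range.

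OPT-tm against T30 over the whole family gave 2 probes higher, 5 lower and 6 not passed, where 21.8% of all tested probes were higher and 20.8% lower. The difference of tumor effects likewise gave 2 higher, 5 lower and 6 not passed, where 21.9% of all tested probes were higher and 20.9% lower. These comparisons share the OPT-tm arrays with that against lesion-free OPT18 and are not independent of it. The 5 lower probes were those of Tgfb1, Tgfbr2 probe 1, both of Tgfbr3 and Smad3 in each of them, and the 2 higher ones were Tgfbr1 probes 1 and 3. For Tgfbr1 probe 1, Tgfbr2 probe 1, Tgfbr3 probe 1 and Smad3, T30 lay at most 0.44 from T18, and OPT-tm lay at least 1.11 from lesion-free OPT18. For Tgfbr3 probe 2, T30 lay 0.04 from T18, and OPT-tm was at least 1.93-fold below lesion-free OPT18. For Tgfb1, T30 lay 0.54 from T18 and OPT-tm 0.05 from lesion-free OPT18. On chips 1 and 2 alone, Tgfbr1 probe 3 did not pass in either comparison (adjusted p = 0.055 and 0.097). With background correction (neqc), the Smad3 difference against lesion-free OPT18 was larger, at -1.93 (limma, adjusted p = 4.9e-08).

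Among lesion-free prostates, no member passed for genotype or age. Lesion-free OPT18 against T18 gave 0 of 13 probes higher and 0 lower, with 0.019% of all tested probes higher and 0.019% lower (limma). At an unadjusted p under 0.05, 1 probe was higher (Tgfbr3 probe 1, by 0.25) and 1 was lower (Tgfb1, by 0.22 on the log2 scale). Tgfbr3 lies on chromosome 5, 2.67 Mb from Spp1, the deleted gene, whose allele came from another strain background, and the part of that linkage was not tested. Lesion-free OPT18 against OPT15 gave 0 higher and 0 lower, with 0% of all tested probes called in either direction (limma), and at an unadjusted p under 0.05, 0 were higher and 2 were lower, Tgfb1 (-0.43) and Smad3 (-0.38). The 2 OPT15 prostates of chip 3 had the highest Smad3 of the study, 10.63 and 10.94, and Tgfb1 values of 9.29 and 9.49, and within chips the Smad3 difference ran between -1.20 and -0.01.

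The early classes were set side by side without a test. Tgfb2 averaged 11.17 ± 0.29 in Early-NE prostates and 10.62 ± 0.21 in Early-ADC prostates (SD, n = 5 and 13). Tgfbr1 probe 1 averaged 13.11 ± 0.14 in Early-NE and 12.90 ± 0.14 in Early-ADC, and Smad2 10.89 ± 0.27 in Early-NE and 10.61 ± 0.23 in Early-ADC. Tgfbr3 probe 1 averaged 12.28 ± 0.20 in Early-NE and 12.51 ± 0.16 in Early-ADC, and Smad3 9.91 ± 0.25 in Early-NE and 10.14 ± 0.33 in Early-ADC. Tgfb3, higher in OPT-tm, was not higher in Early-NE, with 9.61 ± 0.23 there and 9.75 ± 0.24 in Early-ADC. Tgfb1 averaged 8.45 ± 0.21 in Early-NE and 8.70 ± 0.33 in Early-ADC. Tgfbr2 probe 1 averaged 13.22 ± 0.22 and 13.35 ± 0.28, and Smad4 14.58 ± 0.14 and 14.62 ± 0.12, in the same order. The classes overlapped for all 14 probes, and the OPT-tm mean of Tgfb2 was 11.33 ± 0.40 (SD, n = 3).

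These are whole-prostate RNAs, in which fewer cells of a type and less RNA per cell cannot be told apart, and marker lists moved with the losses. In OPT-tm against lesion-free OPT18, 9 of 9 smooth muscle markers were lower, with a summed signal of 28019 to 35877 in OPT-tm and 136705 to 173058 in lesion-free OPT18, and 3 of them (Cnn1, Lmod1 and Synpo2) were detected on no OPT-tm array. Basal epithelium markers were lower for 4 of 4 (1086 to 1381 in OPT-tm, 7643 to 13564 in lesion-free OPT18), with Krt5, Krt14 and Trp63 detected on no OPT-tm array, and luminal markers for 5 of 6 (7420 to 9017 in OPT-tm, 59947 to 87179 in lesion-free OPT18), with Pbsn detected on none. Fibroblast markers were higher for 3, lower for 3 and not passed for 3 of 9 (19447 to 46261 in OPT-tm, 42944 to 73800 in lesion-free OPT18). Seminal vesicle markers were lower for 6 of 6 (1692 to 3013 in OPT-tm, 231812 to 298643 in lesion-free OPT18), with Svs2, Svs3a and Svs4 detected on no OPT-tm array. Of all genes, 32.1% were higher and 32.3% lower in this comparison, and the fibroblast counts were near these shares. In T30, the summed smooth muscle signal was 140540 to 167760, against 160919 to 196745 in T18, and the luminal signal 60519 to 72301, against 67793 to 78749. Fibroblast markers were higher in T30 for 3 and lower for 0 of 9 (63248 to 127406 in T30, 31306 to 73809 in T18). Basal markers were higher for 0 and lower for 1 of 4 (9877 to 42112 in T30, 9164 to 11611 in T18). Seminal vesicle markers were higher for 0 and lower for 0 of 6 (3249 to 344373 in T30, 248628 to 291480 in T18). Of all genes, 0.474% were higher and 1.73% lower in T30 against T18. The part of these cells in the lower Tgfbr2, Tgfbr3 and Smad3 of OPT-tm was not tested.

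**Figure D4:**
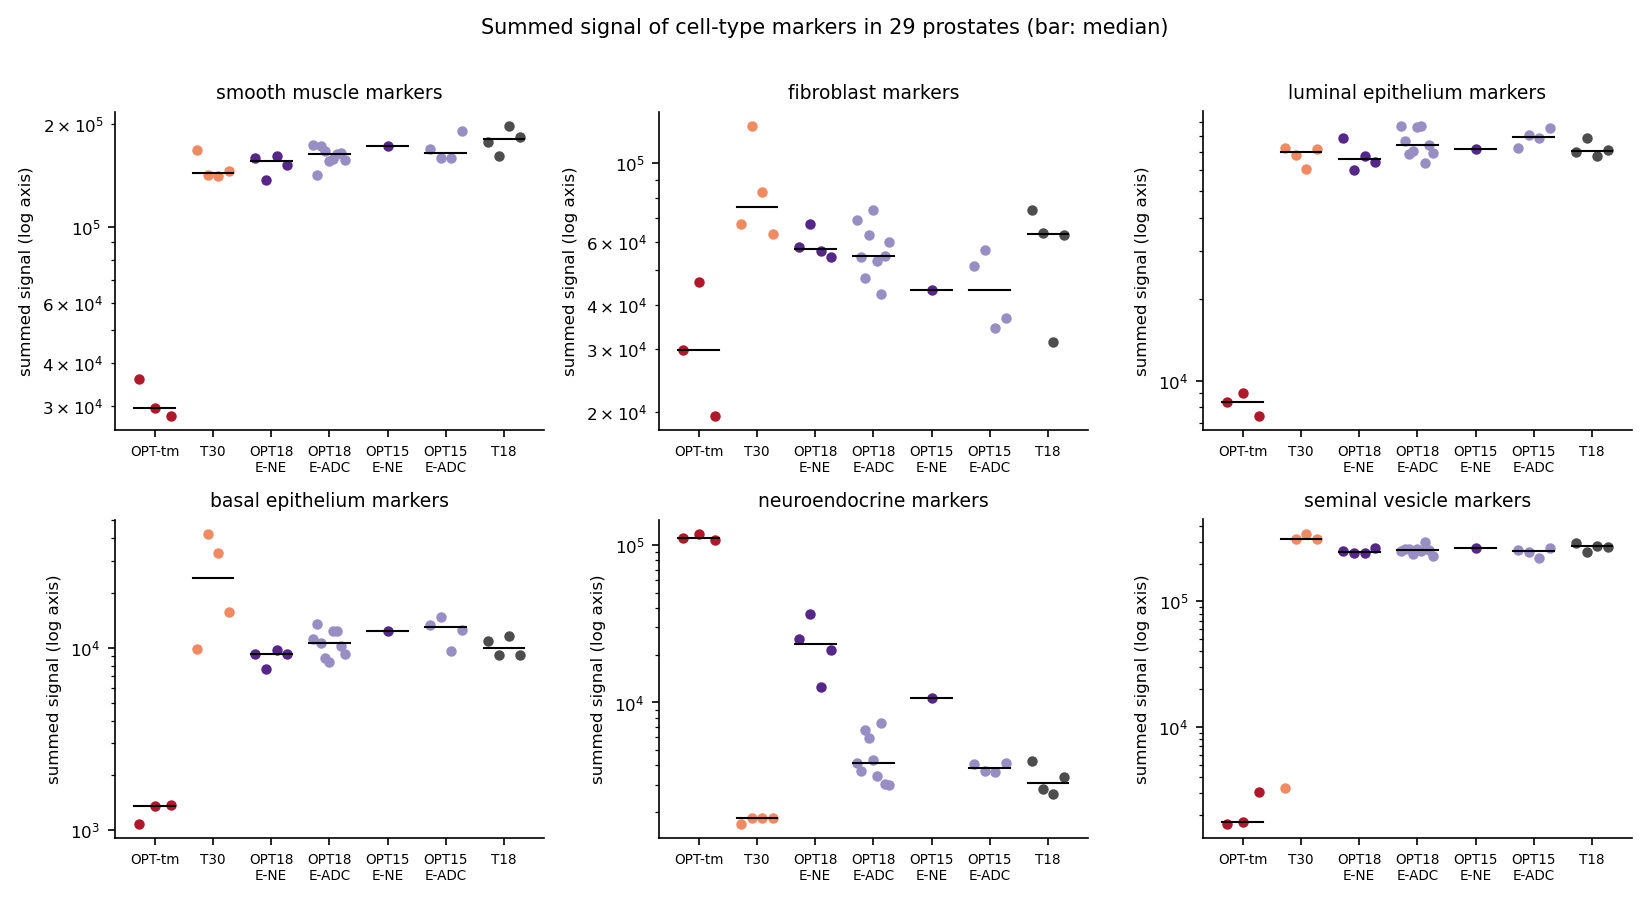
Summed signal of 6 cell-type marker lists (y axis, log scale) in 29 prostates, with 1 point per mouse, grouped on the x axis (E-NE, Early-NE. E-ADC, Early-ADC). Bars are group medians. OPT-tm is low in smooth muscle, luminal, basal and seminal vesicle markers and high in neuroendocrine markers, and the T30 prostate of chip 1 is low in seminal vesicle markers (3249).

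Genes that store and release latent ligand were mostly lower in OPT-tm. Of 10 tested genes of this list, 1 was higher, 8 were lower and 1 did not pass against lesion-free OPT18, with a median of -0.96. Of all 10768 genes, each read by 1 probe, 32.1% were higher and 32.3% lower, with a median of -0.01. Itgb6, the integrin subunit that activates TGF-beta on epithelium, differed by -2.62 ± 0.20 (SE, limma, adjusted p = 1.4e-09), and Furin, the protease that cleaves the ligand precursors, by -1.18 ± 0.11 (SE, limma, adjusted p = 1.9e-08). Emilin1, which holds back precursor processing, was higher by 0.62 ± 0.10 (SE, limma, adjusted p = 1.6e-05), and Thbs1, another activator, did not pass (0.20, limma, adjusted p = 0.39). In T30 against T18, 1 of the 10 was higher and 0 lower, where 0.474% of all genes were higher and 1.73% lower. At an unadjusted p under 0.05, a threshold these shares do not have, 5 were higher and 1 lower. The 1 higher at an adjusted p was Mmp2 (1.63, limma, adjusted p = 0.037), a protease named after its value was seen. Mmp2 was lower in OPT-tm against lesion-free OPT18 (-0.88, limma, adjusted p = 0.0011).

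Partners of the receptors gave 4 higher, 2 lower and 7 not passed of 13, with a median of -0.08. Of all genes, 32.1% were higher, near the share of this list, and 32.3% were lower, above the share of this list. Fkbp1a, which keeps the type I receptor silent until ligand binds, was higher by 1.07 ± 0.18 (SE, limma, adjusted p = 3.3e-05), and Strap, a receptor-associated inhibitor, by 0.62 ± 0.11 (SE, limma, adjusted p = 6.6e-05). The endocytic adaptor Dab2 and the ubiquitin ligase Nedd4l were lower, by -0.75 ± 0.13 and -0.74 ± 0.13 (SE, limma, adjusted p = 6.9e-05 and 5.6e-05). Eng, an endothelial co-receptor, and Usp15, a deubiquitinase, did not pass (-0.13 and 0.07). In T30 against T18, 0 of the 13 passed (limma), where 0.474% of all genes were higher and 1.73% lower. At an unadjusted p under 0.05, a threshold these shares do not have, 4 were higher and 0 lower.

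Of 6 nuclear partners and repressors of Smads, 2 were higher, 2 lower and 2 not passed, with a median of 0.11, near the shares of all genes. Tgif1, a co-repressor of Smads, differed by -2.23 ± 0.22 (SE, limma, adjusted p = 7.2e-08). Smad6, an inhibitory Smad, was detected on 0 of 3 OPT-tm arrays and 13 of 13 lesion-free OPT18 arrays, and was at least 1.90-fold lower in OPT-tm (limma, adjusted p = 4.1e-08). Trim33, which binds Smads, was higher by 0.61 ± 0.10 (SE, limma, adjusted p = 2.0e-05), and the coactivator Ep300 and the repressor Skil did not pass (0.05 and 0.17). In T30 against T18, 0 of the 6 passed (limma), also at an unadjusted p under 0.05. Of all genes, 0.474% were higher and 1.73% lower there at an adjusted p under 0.05.

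Of 19 genes known to respond to TGF-beta, 6 were higher, 4 lower and 9 not passed in OPT-tm against lesion-free OPT18, with a median of -0.15. Of all genes, 32.1% were higher and 32.3% lower. The list was not split by the direction in which TGF-beta moves each gene. Its counts and medians therefore give no direction for the pathway. Cdkn1a, the cell cycle inhibitor p21, was higher by 2.58 ± 0.25 (SE, limma, adjusted p = 4.4e-08), and Tsc22d1 by 1.49 ± 0.25 (SE, limma, adjusted p = 4.2e-05). Tpm1, a tropomyosin also abundant in smooth muscle, differed by -3.06 ± 0.13 (SE, limma, adjusted p = 3.4e-13), and Id1, an inhibitor of helix-loop-helix factors, by -1.56 ± 0.14 (SE, limma, adjusted p = 1.9e-08). Ccn2, the connective tissue growth factor, and Id2 did not pass (-0.24 and -0.32).

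In T30 against T18, 3 of the 19 response genes were higher and 0 lower, with a median of 0.84. Of all genes, 0.474% were higher and 1.73% lower at the same adjusted p, with a median of 0.00. At an unadjusted p under 0.05, a threshold these shares do not have, 13 response genes were higher and 0 lower. The 3 response genes higher at an adjusted p were Cdkn1a (1.69, limma, adjusted p = 0.0011), Id1 (1.36, limma, adjusted p = 0.0063) and Cdkn2b (1.14, limma, adjusted p = 0.012). Cdkn2b, a cell cycle inhibitor, was named after its value was seen. Of the fibroblast markers, 3 of 9 were also higher in T30, and the part of those cells in the response genes was not tested. In the test of the tumor effects, 1 of the 19 was higher and 10 were lower, where 22.1% of all genes were higher and 22.2% lower. The higher one was Cdkn1a (0.89, limma, adjusted p = 0.041). Among the lower ones, the differences were -2.93 for Id1 (limma, adjusted p = 8.0e-10) and -1.80 for Ccn2 (limma, adjusted p = 0.0024).

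**Figure D5:**
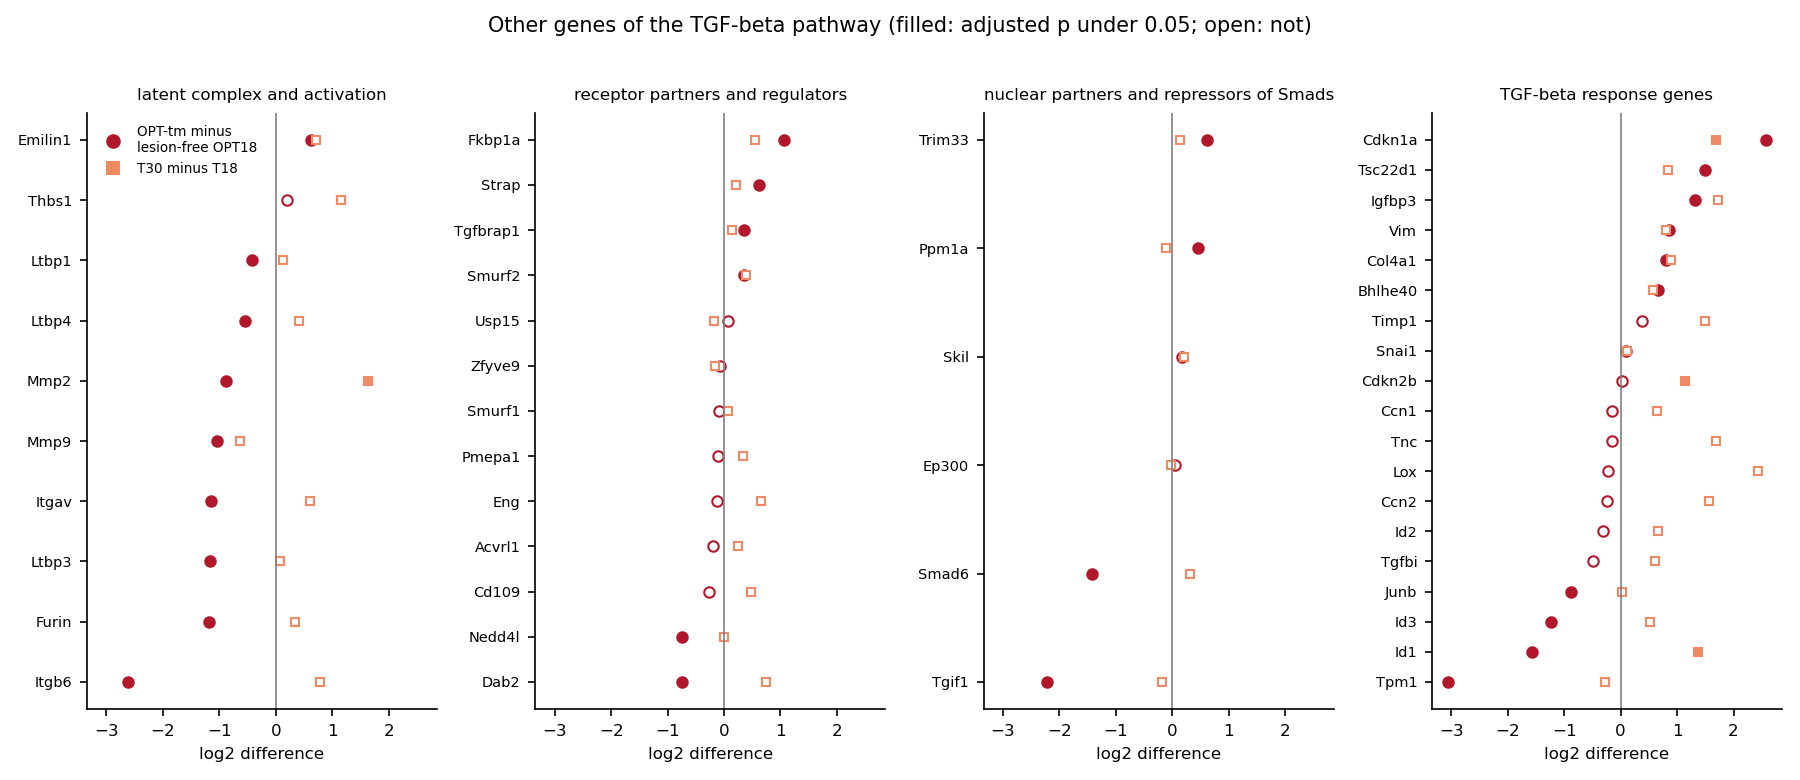
Log2 difference (x axis) of the other pathway genes, in 4 lists (1 panel each, genes on the y axis), for OPT-tm minus lesion-free OPT18 (circles) and T30 minus T18 (squares). Filled symbols passed at an adjusted p under 0.05. The latent complex panel has 8 filled circles left of 0 and the response panel has filled circles on both sides.

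The genes whose mean-centred levels lay closest to those of 4 members over the 29 arrays were listed among 7649 candidates, by the root mean square difference. For Tgfbr1 they were Adnp, Nkap and Ube2o (0.13 to 0.15, against a spread of 0.38 for Tgfbr1 itself). For Tgfbr2 they were Slc30a7, Nod1 and Ech1 (0.21 to 0.22, spread 0.48), for Tgfbr3 Slc7a4, Csad and Rrbp1 (0.23 to 0.24, spread 0.78), and for Smad3 Ccnd3, Cmtm6 and Fam114a2 (0.20 to 0.21, spread 0.48). The points share the 29 arrays and their group structure.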

How the data were processed

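RNA of 29 mouse prostates was hybridised to Illumina MouseRef-8 v2.0 BeadChips by the authors, 1 array per mouse. The deposited signals are bead intensity values exported without normalization, each with a deposited detection p-value, and the authors' second table holds log2 values after robust spline normalization in lumi (version not given). No depth exists for arrays, whose number limits the precision. Here the intensities were log2-transformed and quantile-normalized without background correction. The 15825 of 25697 probes that any array detected, at a p-value below 0.01, were tested with limma 3.58.1 in R 4.3.3, each comparison on its own groups, with Benjamini-Hochberg adjustment. The fits were tested on simulated data. Mice are the replicates. A symbol was given to 23978 probes by the platform annotation, and 1719 had none. Early-NE and Early-ADC are the study's names for the labels' classes Ineuntes and Reliquia, matched by their numbers. Where a listed gene had several probes, the one detected on most arrays stood for it. All member probes are named. Of each pathway list, up to 2 higher and 2 lower genes with no overlap and the largest change, and up to 2 not passed with the highest level, are named. Members and lists were chosen with earlier results of these data known.

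The other marker lists gave, in OPT-tm against lesion-free OPT18, 1 higher and 2 lower of 8 for endothelium and 3 lower of 8 for macrophage and antigen presentation. Of the lymphocyte markers, 3 of 4 were lower. Of all genes, 32.1% were higher and 32.3% lower in that comparison. Figures were drawn with matplotlib.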

Additional observations from a re-analysis of the deposited data

Results flagged for a closer look

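The tumor effects, OPT-tm over lesion-free OPT18 minus T30 over T18, differed by a test of the difference itself for 7 of the 13 probes. The values were -0.49 for Tgfb1, 0.90 for Tgfbr1 probe 1, 0.55 for Tgfbr1 probe 3, -1.20 for Tgfbr2 probe 1, -2.02 for Tgfbr3 probe 1, -1.47 for Tgfbr3 probe 2 and -1.17 for Smad3. Tgfbr3 probe 2 was detected on no OPT-tm array and Tgfbr1 probe 3 on no T18 array, so the sizes for these probes rest on values near background. Within a group, 4 values stood far from the others by Dixon's test, of 70 probe and group pairs looked at, where chance gives about 1 in 20. Tgfbr3 probe 2 was 8.79 and not detected in the T30 prostate of chip 4, against 9.33 to 9.40 in the other 3. In 1 Early-NE prostate of 18 wks, on chip 2, Tgfbr3 probe 2 was 9.72, against 9.25 to 9.31 in the other 3, and Smad2 was 10.51, against 11.06 to 11.09. Smad3 was 9.59 in 1 Early-ADC prostate of 18 wks on chip 3, against 9.94 to 10.27 in the other 8.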

How the results depend on the processing

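There were 78 results for single probes, each computed under 14 to 23 of 28 alternatives. Of the 78, 55 kept their call of higher, lower or not passed under every alternative they were computed under, and 0 calls reversed. Among results that did not pass, the sign of the difference could change, as for Smad3 in T30 against T18 (-0.13 to 0.03). The results of Tgfbr3 and Smad3 in the 3 comparisons with OPT-tm were among the 55. The alternative of chips 1 and 2 only was added after seeing the data. Some of the counts that moved are given here, and their cause was not tested unless the alternative's construction shows it. With 1 probe per gene, fewer probes were tested, and 3 were lower in OPT-tm against lesion-free OPT18, 1 was higher against T30 and 1 was higher in the difference of tumor effects. With a fold change of at least 2 required, 1 was higher in OPT-tm against lesion-free OPT18, 0 in T30 against T18, 1 in OPT-tm against T30 and 0 in the difference of effects. Among the lower calls, that of Tgfbr2 probe 2 against lesion-free OPT18 was lost, as were those of Tgfb1 against T30 and in the difference of effects. With array medians set equal, 0 were higher in T30 against T18, 3 lower in OPT-tm against T30, and 1 higher and 3 lower in the difference of effects. With all 29 arrays in one fit, 3 were higher in T30 against T18 and 4 in OPT-tm against T30. With the chip as a block 4 were higher in OPT-tm against T30, and with chips 1 and 2 only 1 was higher there and 0 in T30 against T18. With the Early-ADC prostates only, a class the authors drew on these arrays, 4 were higher in the difference of effects. Leaving out 1 array at a time, T30 against T18 gave 0 to 1 higher.

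Over all probes, T30 against T18 had 62 higher and 249 lower (19.9% higher), 703 and 793 with all 29 arrays in one fit (47.0%) and 4 and 106 with array medians set equal (3.6%). Setting medians equal moved the median of all probes by over 0.1 in lesion-free OPT18 against OPT15 alone (0.13). The labels give the mice no shared replicate numbers to pair by. Each chip held 1 T30 and 1 T18 array, and with the chip as a block Smad2 in T30 against T18 kept its call. Tgfb1, Tgfbr1 probe 3 and Tgfbr2 probe 2, detected on 17, 7 and 15 of 29 arrays, lay near background. Smad3 was detected on 28 of 29 arrays, and its lowest values were those of OPT-tm.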
